A study of Homo sapiens with 8 samples.

Results

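The family of miR-130, miR-301 and miR-454 is a group of microRNAs from 5 human genes, MIR130A, MIR130B, MIR301A, MIR301B and MIR454, whose 3p arms share their seed, the stretch near the 5′ end that pairs with target mRNAs. Every human mature arm of these genes on the array was taken by name, 10 arms of the 2549 human miRNAs measured. The study asked what EZH2 inhibition does to miRNA levels in multiple myeloma. Mature miRNAs of INA-6, an established human myeloma cell line grown with interleukin-6, were measured on 8 single-colour arrays, each with 53144 spots, after 120 hours (5 days) with 1 µM of UNC1999, a compound that blocks the methyltransferase EZH2 (4 arrays), or with the solvent DMSO (4 arrays). For its 5-day viability setup the paper describes a refresh of medium and reagents part way through. This is taken to hold for all 8 arrays, DMSO and UNC1999 alike. INA-6 stands for a single myeloma line, and both groups carry whatever that line carries. Sample titles and paper name DMSO as the control, whereas the treatment protocol in the labels names UNC2400, an inactive relative of UNC1999. The controls are called DMSO here, and which of these they received cannot be told from the array values.

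As background, a microRNA gene gives a hairpin whose arms, 5p and 3p, can each become a mature miRNA, and the arm that is kept guides Argonaute to mRNAs that it represses. In this family the 3p arm is the usual guide. A repressive methyl mark on histone tails is placed by the Polycomb complex PRC2, in which EZH2 carries out the methylation.

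The mature 3p sequences are shown because they make these miRNAs a family and show where its members differ. Sequences come from RefSeq (GRCh38.p14), in which 8 of the 10 arms were matched; miR-130a-3p and miR-301b-5p are named only. Capitals mark the seed, bases 2 to 8 from the 5′ end.
miR-130b-3p: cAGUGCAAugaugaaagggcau
miR-301a-3p: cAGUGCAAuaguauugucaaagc
miR-301b-3p: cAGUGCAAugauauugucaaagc
miR-454-3p: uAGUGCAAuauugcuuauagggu
The 4 printed arms hold the same seed, AGUGCAA. Counted from 1 at the 5′ end, miR-301a-3p and miR-301b-3p differ at 2 of 23 bases (A10G and G11A from miR-301a-3p to miR-301b-3p), both just past the seed. miR-130b-3p and miR-301b-3p share their first 12 bases and part after that, and miR-454-3p differs from miR-130b-3p at base 1 already (C1U). Arms this alike may share signal on an array, and cross-hybridisation between them was not tested.

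A signal here is the background-subtracted intensity of a miRNA, the sum over its probes of the mean over spots, in arbitrary units. The scanner software marked 482, 369, 370 and 484 human miRNAs as detected on DMSO replicates 1 to 4, and 500, 498, 491 and 474 on UNC1999 replicates 1 to 4. DMSO replicates 2 and 3 stood apart as dim arrays, with the fewest detected miRNAs. The lowest unscaled signal marked as detected was 7.72, 11.9, 13.2 and 9.30 on the DMSO arrays and 12.4, 10.5, 8.75 and 10.5 on the UNC1999 arrays. The 75th percentile of the miRNAs detected on all 8 arrays was 474, 349, 296 and 559 on the DMSO arrays and 686, 708, 729 and 534 on the UNC1999 arrays, with means of 419 ± 119 and 664 ± 88.4 (SD, n = 4 each; exact permutation test, two-sided, p = 0.0571). Each array was divided by this percentile, multiplied by the geometric mean of the 8, raised to a floor of 8.98 and put on the log2 scale, where the floor is 3.17. A log2 value therefore compares a miRNA with the others of its array, and a direction can turn with the scaling. Row 1 of the slide held DMSO replicates 1, 2 and 4 with UNC1999 replicate 4, and row 2 held the other 4 arrays. Each row thus held a single array of one of the groups, whose spread was taken to be that of the others, and a value within a row rests on that array. Arrays were also alike in pairs within each group, with DMSO replicates 1 and 4 and UNC1999 replicates 1 and 3 on one side of the second principal component. The sample titles call the arrays biological replicates 1 to 4, and a figure legend of the paper describes the array results as those of 4 separate biological experiments. The values alone did not show whether alike arrays held separate cultures, and the p-values below measure the spread between these arrays. The number of arrays limits the precision. The smallest exact p that 4 arrays in each group allow is 0.0286.

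Of the 10 arms, the 5 arms named 3p passed the detection filter (marked as detected on each array of DMSO or of UNC1999) and were tested among 456 miRNAs with limma's moderated test, while the 5 arms named 5p were detected on 0 of 8 arrays. A call needed a fold of 1.2 or more and an adjusted p (Benjamini-Hochberg) no higher than 0.05. Of the 5 tested arms 2 were called, against 70.6% of all tested miRNAs: miR-130a-3p was higher after UNC1999 (36.0% of all were called higher), though below 0 and not called with normexp background correction, and miR-130b-3p was lower (34.6% were called lower), though above 0 and not called without scaling or with spike-in scaling. For the same 2 arms the DMSO and UNC1999 values did not overlap, as held for 65.4% of all tested miRNAs. No test was made of the family's shares, 2 of 5 arms, against these. miR-130a-3p passed the filter through the UNC1999 arrays alone, with DMSO values at or near the floor, so its call and lack of overlap are not read as a test of the size of a change. miR-454-3p, detected on 2 of 4 DMSO arrays, also passed the filter through the UNC1999 arrays alone. The median log2 fold change of the 5 tested arms was -0.22, with 4 below 0, beside 0.011 over all 456, with 226 below 0. The median was the same with miR-130a-3p, whose DMSO signals were not detected, at the approximate bound of its fold given later. All 5 arms were above 0 without scaling and with spike-ins. Without regard to sign, the median change was 0.30 for the 5 arms and 0.51 for all tested miRNAs on the log2 scale. Among arms detected on all 8 arrays the median was -0.30 for the 3 of the family and -0.14 for all 346.

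**Figure D1:**
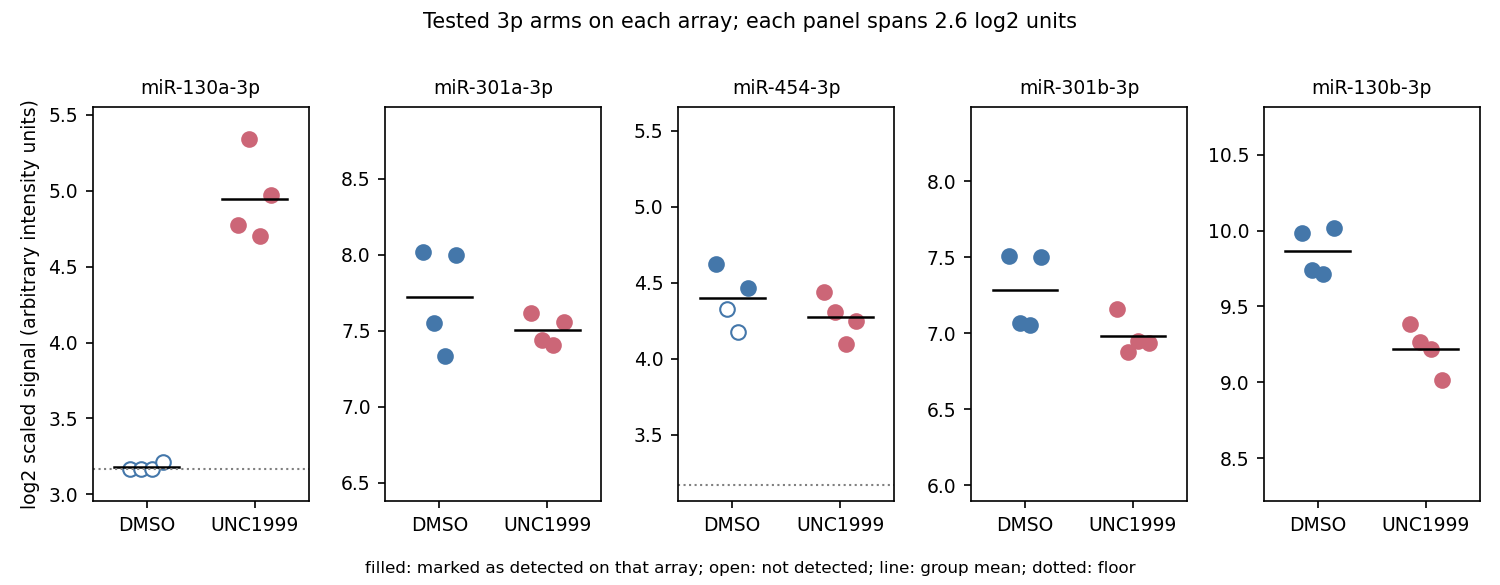
Log2 scaled signal of each tested arm on the 4 DMSO and 4 UNC1999 arrays (filled, detected; open, not detected; line, group mean; dotted, floor). With this scaling miR-130a-3p lay between 4.70 and 5.34 on the UNC1999 arrays and at or near the floor on the DMSO arrays. With it miR-130b-3p was lower on every UNC1999 array. Under normexp the sign of miR-130a-3p turned after scaling between arrays, not before. The sign of miR-130b-3p turned with no scaling or spike-in scaling.

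MIR130A, the family's only gene on chromosome 11, lies within the span of the long noncoding RNA gene MIR130AHG. The unscaled signal of miR-130a-3p was 5.06, 3.77, 4.77 and 10.0 on DMSO replicates 1 to 4, none of them marked as detected, and 36.3, 55.4, 36.6 and 32.4 on UNC1999 replicates 1 to 4, all marked as detected. Every UNC1999 array was above every DMSO array, and the highest DMSO value, that of replicate 4, was the only DMSO value above its array's lowest detected signal. Detection on all UNC1999 arrays and no DMSO array was seen for 20 of the tested miRNAs (4.39%), and the reverse for none. On the log2 scale the scaled signals were 3.17, 3.17, 3.17 and 3.22 in the DMSO group and 4.78, 5.34, 4.70 and 4.97 in the UNC1999 group, so that 3 DMSO arrays sat at the floor and the groups did not overlap. The means were 3.18 ± 0.024 and 4.95 ± 0.29 (SD, n = 4 each), where the floor makes the DMSO spread artificially small.

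Because the DMSO signals were not detected, the fold of miR-130a-3p is given as an approximate bound. Set against the higher of each DMSO array's lowest detected signal and its own signal there, it was about 2.31-fold higher after UNC1999. Normexp showed a rise before but not after scaling. The bound is approximate, since an undetected miRNA can lie above its array's lowest detected signal, as miR-454-5p did on all 8 arrays. The floor does not enter this calculation. After scaling, the lowest detected signal of DMSO replicate 1 lies below the floor (3.08 against 3.17, log2), as does that of replicate 4. Over DMSO replicates 1 and 4 alone the same calculation gave 3.48-fold. That choice was made after seeing the data, and its value is not taken as a bound. The fit by limma put the difference at 1.77 on the log2 scale (standard error 0.14, adjusted p = 4.45e-05, exact permutation p = 0.0286; below 0 with normexp). The floor sets the DMSO side of these numbers, so the call is not read as a test of the size or its precision. Both probes of miR-130a-3p gave higher values on every UNC1999 array than on any DMSO array, with unscaled signals of 2.69 to 7.10 against 21.2 to 35.3 for probe 1 and 0.48 to 2.92 against 11.1 to 20.1 for probe 2.

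With normexp, which corrects each raw spot with the local background around it, the log2 fold change of miR-130a-3p was -0.20 (offset 50) or -0.031 (offset 1, added after seeing the data), and neither was called. Spots of the 1980 miRNAs detected on no array were brighter than the local background by a median of 23 to 26 units on the 8 arrays. The normexp sums (offset 1) before scaling were 65.2, 56.7, 59.5 and 66.3 for miR-130a-3p on the DMSO arrays and 89.0, 112, 87.0 and 80.6 on the UNC1999 arrays. They did not overlap and were higher in the UNC1999 group. The miRNAs detected on no array had median sums of 49.9 to 58.4 under this correction. The order of the groups turned at the scaling between arrays, which followed. Relative to the median of all tested miRNAs, which normexp moved to -0.29 and -0.31, miR-130a-3p was 0.087 and 0.28 higher.

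**Figure D2:**
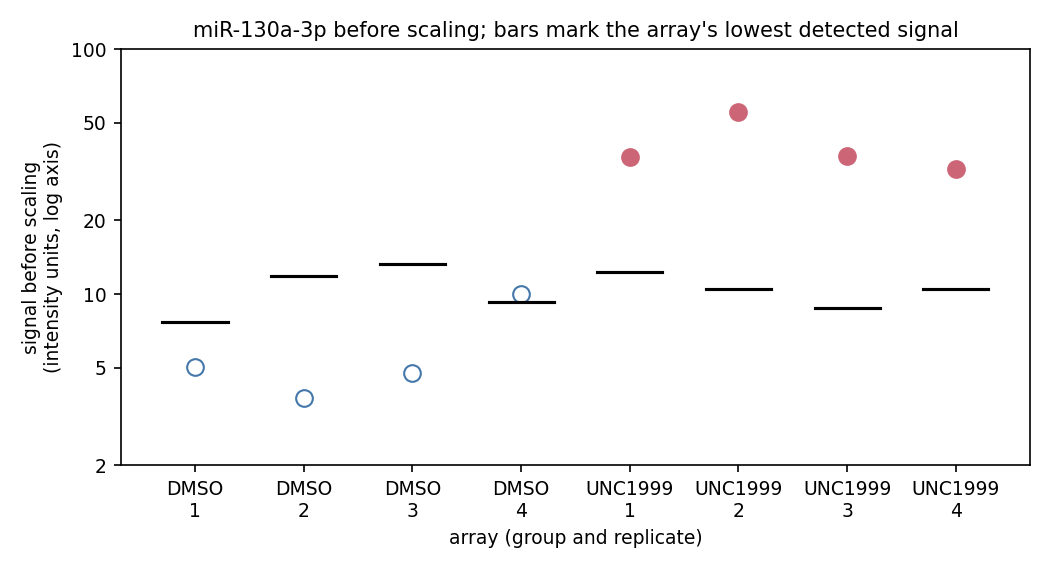
Unscaled signal of miR-130a-3p on each array (log axis, intensity units; filled, detected; open, not detected), with a bar at the lowest signal marked as detected on that array. The 4 UNC1999 signals, 32.4 to 55.4, were above the bar, and the DMSO signals, 3.77 to 10.0, were under it except on replicate 4; the order of the scaled group means turned with normexp.

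MIR301B and MIR130B are neighbours on the plus strand of chromosome 22, with no other miRNA gene between them, both within the span of a transcribed pseudogene. The unscaled signal of miR-130b-3p was 926, 577, 479 and 1119.6 on DMSO replicates 1 to 4 and 885, 843, 838 and 533 on UNC1999 replicates 1 to 4, and it was detected on all 8. These unscaled values overlapped, with the dim DMSO replicates 2 and 3 and UNC1999 replicate 4 low. After scaling they were 9.98, 9.74, 9.71 and 10.02 in the DMSO group and 9.38, 9.27, 9.22 and 9.01 in the UNC1999 group on the log2 scale. Every UNC1999 value was then below every DMSO value. The mean went from 9.86 ± 0.16 to 9.22 ± 0.15 (SD, n = 4 each), which limma put at -0.64 with a standard error of 0.12 and an adjusted p of 0.00115 (exact permutation p = 0.0286). Its 2 probes gave -0.63 and -0.68. Without scaling the log2 fold change was 0.055 and with scaling to the labelling spike-ins 0.17, neither called, so that a fall of miR-130b-3p was one relative to the other miRNAs of the array. It was -0.90 within slide row 1 and -0.42 within slide row 2, the latter not called, where DMSO replicate 3, the dimmest array, was the only DMSO array. In RNA of a bulk culture, fewer cells with a miRNA and less of it in each cell cannot be told apart.

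Some scalings moved all miRNAs together. The median log2 fold change of all tested miRNAs was 0.011 with the scaling used here, 0.23 when the 75th percentile was taken over all human miRNAs, 0.11 with quantile normalization, 0.67 without scaling, 0.78 with the spike-ins and 0.18 in the authors' processed values. Of the calls, 192 of 280 were higher with the percentile over all human miRNAs, 234 of 238 without scaling, 295 of 302 with the spike-ins, 54 of 284 with normexp and 70 of 317 with normexp at the small offset. Relative to that median, miR-130b-3p was lower under each of these and with the scanner software's own sums, from -0.77 with those sums to -0.14 with normexp, and miR-130a-3p was higher under each.

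**Figure D3:**
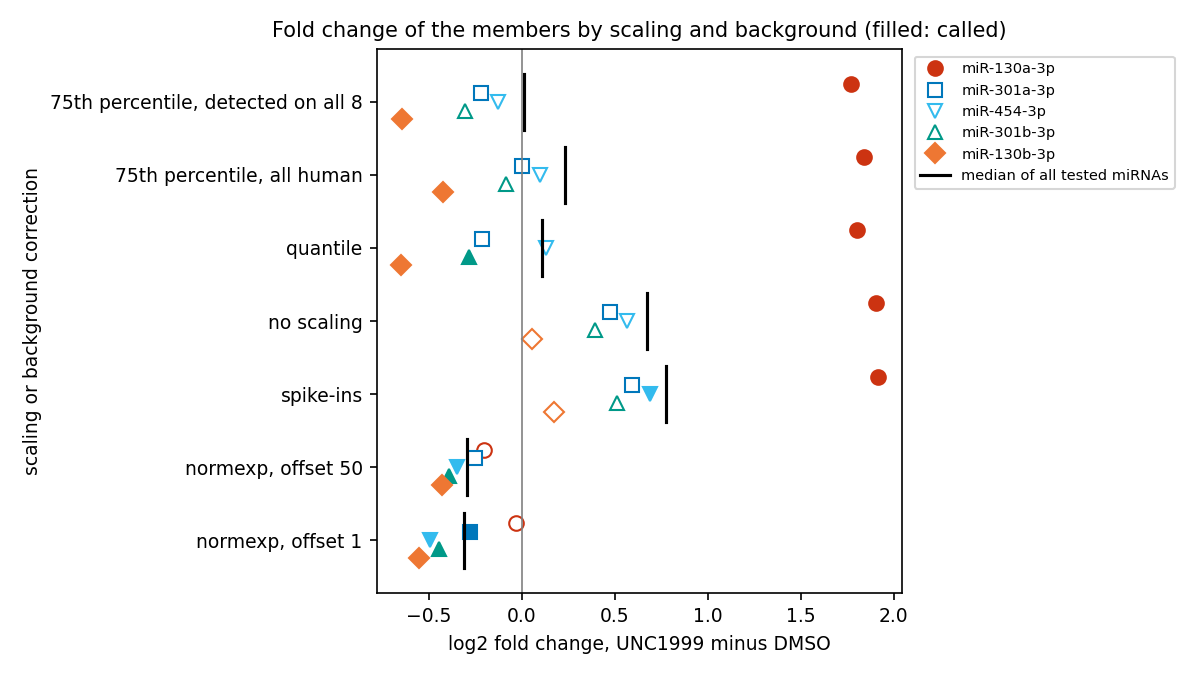
Log2 fold change (UNC1999 minus DMSO) of the 5 tested arms under 5 scalings and 2 background corrections (filled, called), with a bar at the median of all tested miRNAs. miR-130a-3p stood right of the bar under each setting but below 0 with normexp, and miR-130b-3p stood left of the bar in each but above 0 without scaling and with spike-ins.

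miR-301b-3p, from the gene next to MIR130B, was detected on all 8 arrays. Its log2 scaled signals were 7.51, 7.07, 7.06 and 7.50 on DMSO replicates 1 to 4 and 7.16, 6.88, 6.95 and 6.94 on UNC1999 replicates 1 to 4. The bright DMSO replicates 1 and 4 were above all UNC1999 arrays, while the dim replicates 2 and 3 lay within the UNC1999 range. The means were 7.28 ± 0.26 and 6.98 ± 0.12 (SD, n = 4 each), and the log2 fold change of -0.30 (limma adjusted p = 0.066, standard error 0.14, exact permutation p = 0.0857) was not called. It was called lower without DMSO replicate 2 (-0.38, adjusted p = 0.0369), without DMSO replicate 3 (-0.38, adjusted p = 0.0358), without both (-0.53, adjusted p = 0.00386, chosen after seeing the data), and with normexp (-0.39, adjusted p = 0.00565), and was above 0 without scaling (0.39) and with spike-ins (0.51). With the side of the second principal component as a block it was also called (-0.30, limma adjusted p = 0.0121). The same held with the mean of log2 probe values (-0.32) and quantile normalization (-0.29), among other settings given later. It was not called with slide row as a block (-0.24), the percentile over all human miRNAs (-0.083) or the authors' values (-0.18). The log2 fold change was -0.42 within slide row 1 and -0.062 within slide row 2. Of its 4 probes the dimmest stayed near the background, with signals of at most 2.30, and the others gave -0.48, -0.31 and -0.28. Of these 3, the probe at -0.48 alone had groups that did not overlap (exact permutation p = 0.0286).

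MIR454 and MIR301A are neighbours on the minus strand of chromosome 17, both within the span of the protein-coding gene SKA2. The log2 scaled signals of miR-301a-3p were 8.02, 7.55, 7.33 and 8.00 on DMSO replicates 1 to 4 and 7.62, 7.44, 7.40 and 7.56 on UNC1999 replicates 1 to 4. As for miR-301b-3p, DMSO replicates 1 and 4 were highest, and DMSO replicate 3 was below all UNC1999 arrays, so the groups overlapped. The means were 7.73 ± 0.34 and 7.50 ± 0.10 (SD, n = 4 each), and the log2 fold change of -0.22 (limma adjusted p = 0.222, standard error 0.16, exact permutation p = 0.343) was not called. It was called lower without DMSO replicate 3 (-0.35, adjusted p = 0.0449) and without the dim DMSO arrays (-0.50, adjusted p = 0.00358, chosen after seeing the data), and was above 0 without scaling (0.48), with spike-ins (0.59) and within slide row 2 (0.15), beside -0.30 within slide row 1. Smaller in size were -0.00072 with the percentile over all human miRNAs and -0.072 with slide row as a block, neither called.

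miR-454-3p was dim. Its unscaled signals were 22.6, 13.5, 10.3 and 23.8 on DMSO replicates 1 to 4, of which replicates 2 and 3 were not detected, and 28.7, 27.1, 24.1 and 19.6 on UNC1999 replicates 1 to 4, all detected. The dim DMSO arrays were the lowest of the 8. The log2 scaled signals were 4.62, 4.33, 4.18 and 4.46 in the DMSO group and 4.44, 4.31, 4.10 and 4.24 in the UNC1999 group. After scaling the groups thus overlapped, with means of 4.40 ± 0.19 and 4.27 ± 0.14 (SD, n = 4 each) and a log2 fold change of -0.13 (limma adjusted p = 0.363, standard error 0.12, exact permutation p = 0.343), not called. It was above 0 but not called without scaling (0.57), with the percentile over all human miRNAs (0.095) and with the scanner software's own sums (0.66). With spike-ins it was called higher (0.69, adjusted p = 0.0122) and with normexp lower (-0.35, adjusted p = 0.0257), and it was -0.23 within slide row 1 and 0.10 within slide row 2. miR-454-3p passed the detection filter through the UNC1999 arrays alone, so its call with spike-ins is not read as a test of a rise. Of its 2 probes, 1 lay at the floor on nearly every array, with signals of at most 3.49.

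The 5p arms of the 5 genes, usually the passenger arms, could not be compared, as none was detected on any array. Their unscaled signals ran from -3.99 to 1.14 for miR-130a-5p, 3.23 to 13.4 for miR-130b-5p, 2.53 to 7.25 for miR-301a-5p, -3.75 to 3.03 for miR-301b-5p and 12.4 to 17.8 for miR-454-5p, which was above the lowest detected signal of each of the 8 arrays without being marked as detected. No ratio of 3p to 5p arm was therefore computed.

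A ratio of 2 miRNAs on the same array does not move with that array's scaling as long as both lie above the floor, and shows only whether they changed unequally. In all, 5 ratios were compared, with Benjamini-Hochberg adjustment over the 5. The log2 ratio of the neighbours miR-130b-3p to miR-301b-3p was 2.47, 2.68, 2.66 and 2.52 on DMSO replicates 1 to 4 and 2.23, 2.39, 2.27 and 2.08 on UNC1999 replicates 1 to 4. The groups did not overlap, and the ratio fell by 0.34 (from 2.58 ± 0.10 to 2.24 ± 0.13, SD, n = 4 each; exact permutation p = 0.0286, adjusted 0.0476). The adjusted p was 0.0857 over the 3 ratios whose members lay above the floor on all arrays, an adjustment added after seeing the data, so that its pass rests on the ratios of miR-130a-3p. Without DMSO replicate 2 or 3 the change was -0.31 each time (exact p = 0.0571), and with normexp the change was -0.041 (exact p = 0.8). The ratio of the other neighbours, miR-301a-3p to miR-454-3p, went from 3.33 ± 0.17 to 3.23 ± 0.094 (SD, n = 4 each; change -0.10, exact p = 0.4, adjusted 0.4), with 2 DMSO signals of miR-454-3p not detected.

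The near-identical arms miR-301a-3p and miR-301b-3p, printed early on, come from different chromosomes. Their log2 ratio was 0.44 ± 0.11 and 0.52 ± 0.083 (SD, n = 4 each), a change of 0.082 that was not distinguished from the spread (exact permutation p = 0.314, adjusted 0.393). The ratios of miR-130a-3p to miR-130b-3p and to miR-301a-3p changed by 2.41 and 1.99. Both changes rest on miR-130a-3p signals below detection in the DMSO group, set to the floor on 3 arrays, so that these ratios do move with the scaling, and their p-values are not read. With normexp the changes were 0.22 and 0.047 and did not pass the exact test.

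**Figure D4:**
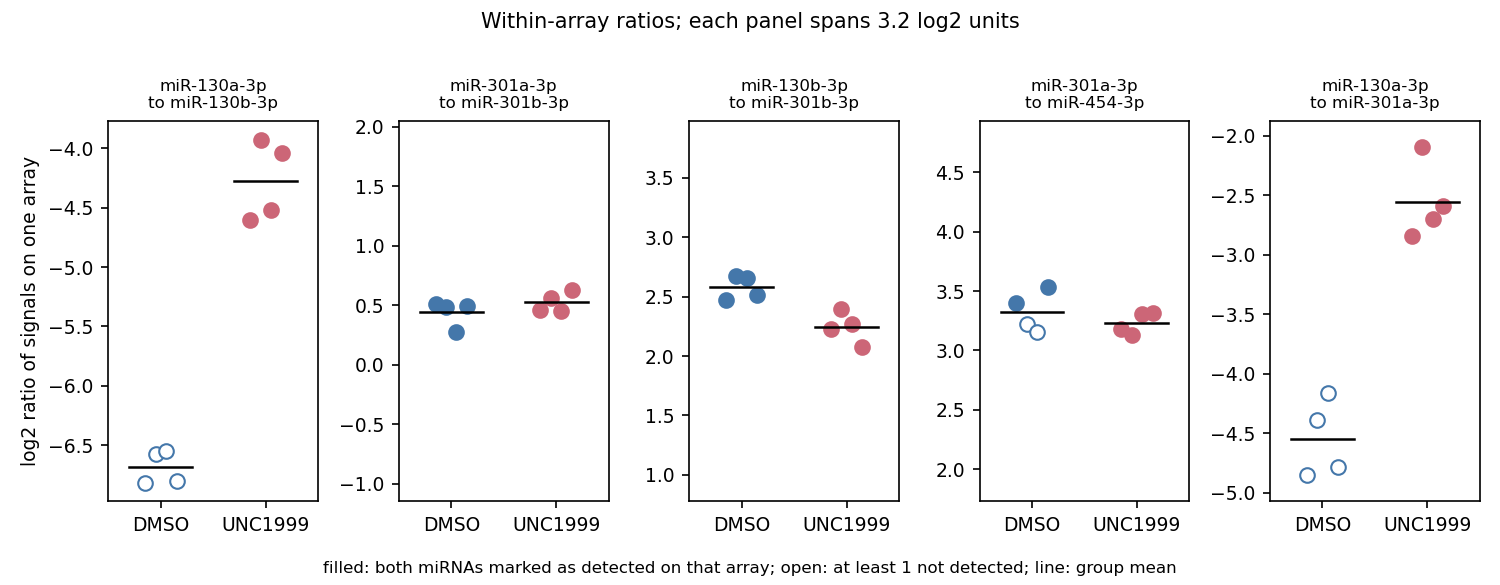
Log2 ratio of a pair of family members on each array (filled, both detected; open, at least 1 not detected; line, group mean). The groups did not overlap for miR-130a-3p to miR-130b-3p, miR-130b-3p to miR-301b-3p and miR-130a-3p to miR-301a-3p, and overlapped for the other ratios; none of these 3 changes passed the exact test with normexp.

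Within alike pairs of arrays, 2 of each group on either side of the second principal component, miR-130b-3p stood at -0.70 and -0.59 on the log2 scale. No such values are given for miR-130a-3p, whose DMSO side was at or near the floor. For the arms not called, the sides gave -0.50 and 0.055 for miR-301a-3p, -0.45 and -0.16 for miR-301b-3p, and -0.28 and 0.024 for miR-454-3p, with the larger sizes on the side of DMSO replicates 1 and 4. No test was made of these differences between sides.

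Other miRNAs on the array have the family's seed or a seed moved along it, and are shown because they could reach overlapping target sites. The 2 others with the seed AGUGCAA, miR-3666 and miR-4295, were detected on 0 of 8 arrays. Of 8 whose seed holds a stretch of the family's at another position, 4 were tested, 3 were detected nowhere and miR-152-3p was detected on 1 array. Examples of the shifted seed, with the seed in capitals as before, are
miR-148a-3p: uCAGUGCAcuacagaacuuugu
miR-19b-3p: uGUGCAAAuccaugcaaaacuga
All 4 tested were called lower (34.6% of all tested miRNAs were), with log2 fold changes of -1.30 for miR-148a-3p, -0.92 for miR-148b-3p, -0.96 for miR-19a-3p and -0.98 for miR-19b-3p, a median of -0.97. They were also below 0 without scaling and with spike-ins, where none of the 4 was called, at -0.60, -0.22, -0.27 and -0.28 without scaling.

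The miRNAs most alike to each member in the pattern over the 8 arrays were named by Pearson's r of the log2 scaled signals, a description in which the shared scaling and group difference have a part. For miR-130b-3p they were miR-99a-5p (0.997), miR-125b-5p (0.996) and miR-15b-5p (0.994). For miR-301a-3p they were miR-26b-5p (0.972), miR-9-3p (0.953) and miR-26a-5p (0.934), and for miR-301b-3p miR-26a-5p (0.985), miR-26b-5p (0.974) and miR-551b-3p (0.972). Among the members, r was 0.922 for miR-301a-3p with miR-301b-3p, 0.845 for miR-130b-3p with miR-301b-3p and 0.658 for miR-130b-3p with miR-301a-3p, over 8 arrays.

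The labelled cell type was checked on marker miRNAs. Of 5 markers of blood and B cells, 3 were detected on all 8 arrays (miR-142-3p, miR-142-5p and miR-150-5p), miR-155-5p on 0 of 4 DMSO and 2 of 4 UNC1999 arrays, and miR-146a-5p on none. The 3 were called lower (-0.52, -0.36 and -0.56 on the log2 scale), but were above 0 and not called without scaling and with spike-ins, none was called with the percentile over all human miRNAs, and miR-142-3p was not called with normexp (-0.30). Of 13 markers of other lineages, red cells, endothelium, stroma, epithelium, liver, muscle and neurons among them, 12 were detected on no array, while the myeloid miR-223-3p was detected on all. miR-223-3p was called higher (1.18), but not with normexp (0.037), and it was the most abundant of the 13, whose summed unscaled signals were 45.5, 35.2, 47.2 and 54.8 on the DMSO arrays and 121.9, 175, 101 and 118 on the UNC1999 arrays. After scaling these sums were 49.7, 52.2, 82.6 and 50.8 against 92.1, 128, 71.7 and 114, and the groups overlapped, with DMSO replicate 3 above UNC1999 replicate 3. The sums include the 12 markers detected on no array. For miR-223-3p alone the groups did not overlap after scaling (exact permutation p = 0.0286). Any part of other cells in the family's values was not tested.

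In the authors' processed log2 values, where an undetected miRNA is set near the log2 of 0.1, miR-130a-3p stood at -3.31, -3.13, -3.13 and -3.31 in the DMSO group and at 1.83, 2.52, 0.54 and 0.70 in the UNC1999 group. That scale makes the fold of an undetected miRNA a matter of the fill value, so no fold is read from it. In the same table miR-130b-3p was 7.17, 6.98, 6.88 and 7.22 in the DMSO group and 6.76, 6.57, 6.59 and 6.28 in the UNC1999 group, again without overlap.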

How the data were processed

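Mature miRNAs were measured on 8 arrays of 1 slide. The authors deposited scanner output (Agilent Feature Extraction 10.7.3.1 per the labels) with the intensity of each spot, background subtracted and not normalized between arrays. A second deposited file holds log2 values as the authors processed them, quantile normalized to judge by the values.

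Outlier spots were dropped, spots averaged by probe, probes summed by miRNA, and arrays scaled to the 75th percentile of miRNAs detected on all 8 arrays, with values raised to a floor of 8.98 before log2. The 456 miRNAs detected on all arrays of a group were fitted with limma 3.58.1 in R 4.3.3 (with the package data.table at version 1.17.8 and jsonlite 2.0.0), with no block. Calls needed a fold of 1.2 or more and a Benjamini-Hochberg adjusted p no higher than 0.05. Ratios and probes had two-sided exact permutation tests. The steps were tested on simulated data. Figures used Python 3.11.15, pandas 2.3.3 and matplotlib 3.10.9.

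The members and lists were chosen with earlier results of these data known. Named miRNAs were all 10 arms, miRNAs of the array with the same or a shifted seed (bases 2 to 8), the 3 most correlated miRNAs for each member detected on all 8 arrays, and the cell type markers.

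Alternatives were the scanner's own sum, the mean of log2 probe values, normexp with an offset of 50, other scalings (75th percentile over all human miRNAs, none, quantile, labelling spike-ins), a floor at 0.1 of that used, other detection filters, the authors' values, another variance model, blocks by replicate number, slide row or side of the second principal component, each slide row alone, each array left out, other thresholds and the paired test of the paper's statistics section. Normexp with an offset of 1, leaving out both DMSO arrays with fewest detected miRNAs, and an adjustment over the ratios above the floor alone were added after seeing the data. The number of arrays limits the precision. Genome coordinates are not given, since the scanner files name hg19 and the gene table is of GRCh38.p14.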

Additional observations from a re-analysis of the deposited data

Results flagged for a closer look

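The log2 ratio of miR-301a-3p to miR-301b-3p was 0.28 on DMSO replicate 3, against 0.49 to 0.51 on the other DMSO arrays. This array's gap to the nearest of the others was 0.91 of the range of its group, above Dixon's critical value for 4 values. It was the only 1 of 31 groups of 4 to stand out so, where chance gives about 1 in 20, or 1.55 groups, and DMSO replicate 3 was also the dimmest array. The part of brightness in this value was not tested.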

How the results depend on the processing

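The direction and call of miR-130a-3p held under 24 of 26 alternatives, and those of miR-130b-3p under 24 of 27. The count for miR-130a-3p includes the authors' values, where all its DMSO values were at or near the fill value, and in the main fit they were at or near the floor. Its count, and its range with arrays left out, are therefore not read as a measure of stability. With normexp at offset 50 the log2 fold change of miR-130a-3p was -0.20 and with offset 1, added after seeing the data, -0.031, with the sums before scaling given in the report. For miR-130b-3p it was 0.055 without scaling, 0.17 with spike-ins and -0.42 within slide row 2. For miR-301a-3p it was 0.48 without scaling, 0.59 with spike-ins, 0.15 within row 2, -0.28 with normexp at offset 1 and -0.50 with the dim DMSO arrays left out (also added later), the last pair called. With the percentile over all human miRNAs it was -0.00072 and with slide row as a block -0.072, neither called. For miR-301b-3p it was 0.39 without scaling and 0.51 with spike-ins, and it was called at -0.32 with the mean of log2 probe values, -0.39 with normexp, -0.29 with quantile normalization, -0.30 with trend and robust priors (adjusted p = 0.0492) or the principal component side as a block (adjusted p = 0.0121, limma), -0.45 with normexp at offset 1 and -0.53 without the dim DMSO arrays, its adjusted p ranging from 0.000579 to 0.775. Not called were -0.083 with the percentile over all human miRNAs, -0.24 with slide row as a block and -0.18 in the authors' values. For miR-454-3p it was 0.66 with the scanner's sum, 0.095 when the percentile was taken over all human miRNAs, 0.57 without scaling, 0.13 with quantile normalization, 0.69 with spike-ins, 0.10 within row 2, -0.35 with normexp and -0.50 with normexp at offset 1, and in the authors' values the difference of means was 1.72, a number set by the fill value of DMSO replicates 2 and 3, from which no fold is read. With each array left out in turn, the log2 fold change ranged from 1.64 to 1.85 for miR-130a-3p, -0.70 to -0.57 for miR-130b-3p, -0.35 to -0.12 for miR-301a-3p, -0.38 to -0.23 for miR-301b-3p and -0.20 to -0.051 for miR-454-3p.

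Of the 10 arms, 1 was called higher, but 0 with either normexp or with only miRNAs detected on all 8 arrays, a filter that removes miR-130a-3p, and 2 with spike-ins. With spike-ins the calls were those of miR-130a-3p and miR-454-3p, which both passed the main filter through the UNC1999 arrays alone. The count called lower was 1, but 2 with the mean of log2 probe values, quantile normalization, trend and robust priors or the principal component block, 3 with normexp or without the dim DMSO arrays, 4 with normexp at offset 1, and 0 without scaling, with spike-ins or within row 2. It was 2 without DMSO replicate 2 and 3 without DMSO replicate 3, and ranged from 1 to 3 over arrays left out. The count called higher was 1 with each array left out, the call of miR-130a-3p, whose DMSO side was at or near the floor. Of all miRNAs tested 70.6% were called, but 7.65% with no filter on detection, where 2549 were tested, 13.4% within slide row 1 and 33.3% with the paired test after adjustment, and 64.0% to 71.5% with each array left out. The cause was not tested where none is named.

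The change of the ratio of miR-130a-3p to miR-130b-3p was 0.22 with normexp and 0.52 with offset 1 (2.30 to 2.52 with each array left out), and that of miR-130a-3p to miR-301a-3p 0.047 and 0.25 (1.84 to 2.12). Both had a DMSO side at or near the floor, and their p-values are not read. With the dim DMSO arrays left out, 2 DMSO arrays remained, too few for an exact p of 0.05 or lower. The exact p-values given below for that setting therefore decide nothing. For miR-130b-3p to miR-301b-3p the adjusted p was 0.0857 over the 3 ratios above the floor on all arrays (added after seeing the data), and the change was -0.36 with the scanner's sum (exact p = 0.0571), -0.25 with the dim DMSO arrays left out (added later; exact p = 0.133), -0.041 with normexp and -0.10 with offset 1 (-0.39 to -0.28 with each array left out). For miR-301a-3p to miR-454-3p it was -0.97 with the scanner's sum (exact p = 0.0571), -0.23 with the dim DMSO arrays left out (added later; exact p = 0.133), 0.096 with normexp and 0.22 with offset 1 (-0.15 to -0.027), and for miR-301a-3p to miR-301b-3p it was 0.14 with normexp, 0.17 with offset 1, 0.022 with the dim DMSO arrays left out (added later) and 0.027 to 0.11 with each array left out.

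With replicate number as a block, miR-130b-3p (limma adjusted p = 0.00358) was called, as were 308 miRNAs in all. miR-130a-3p was among them, with a DMSO spread set by the floor, so its p is not read. The numbers did not mark pairs: correlations between arrays of the same number exceeded 0.1 for 2 of 4, and 1 DMSO array was closest to its own number. Signals near the background limit miR-130a-3p in the DMSO group, miR-454-3p and the 5p arms.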
